A study of Mus musculus with 12 samples.

Results

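Serotonin receptor transcripts were examined in the mouse ventral hippocampus: Htr1a, Htr1b, Htr2a, Htr2c, Htr3a, Htr4, Htr5a and Htr7. The members are the rows of these 8 genes in the deposited expression table, found through their Ensembl identifiers. All 8 were present among the 13951 genes of the table, and all 8 passed the filter on low values that left 13858 genes to test. The 12 libraries were made from polyadenylated RNA, with 3 libraries per sex from Angelman syndrome (AS) mice and 3 per sex from wild-type (WT) mice, which makes 4 groups. Every mouse was of the C57BL/6J strain and 12 to 16 weeks old, and the tissue was the ventral portion of the right hippocampus. Angelman syndrome is a neurodevelopmental disorder that follows loss of the maternal copy of UBE3A, a ubiquitin ligase gene. The allele that makes the AS mice a model is not given in the sources used here, so which cells lack the gene product is not known from the labels.

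Serotonin is released in the hippocampus by axons of raphe neurons in the brainstem, and its receptors fall into families by the signal they send. Htr1a, Htr1b and Htr5a encode receptors that couple to Gi/o proteins and lower cyclic AMP. Htr2a and Htr2c encode receptors that couple to Gq and phospholipase C, Htr4 and Htr7 encode receptors that couple to Gs and raise cyclic AMP, and Htr3a encodes the subunit of an ion channel that hippocampal interneurons carry. In the brain, Htr2c is expressed by neurons and very strongly by the epithelium of the choroid plexus, which secretes cerebrospinal fluid and makes large amounts of transthyretin mRNA (Ttr). A dissected hippocampus can carry some choroid plexus, so Htr2c was set beside Ttr in each library.

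The promoters of the member with the highest and the member with the lowest transcript level, Htr2c and Htr1b, are shown because both hold the CCAAT box letters. The RefSeq promoter table for GRCm38.p6 matched 6 of the 8 members. Each sequence is the 250 bases before the RefSeq start, 5′ to 3′ on the strand of the gene, and capitals mark CCAAT on either strand (written ATTGG where it lies on the opposite strand).
Htr2c promoter, chrX:146962263-146962512, plus strand: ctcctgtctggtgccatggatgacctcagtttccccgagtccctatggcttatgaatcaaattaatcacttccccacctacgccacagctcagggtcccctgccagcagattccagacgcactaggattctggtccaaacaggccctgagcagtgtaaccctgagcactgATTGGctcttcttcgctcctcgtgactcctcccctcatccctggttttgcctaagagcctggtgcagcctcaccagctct
Htr1b promoter, chr9:81633833-81634082, minus strand: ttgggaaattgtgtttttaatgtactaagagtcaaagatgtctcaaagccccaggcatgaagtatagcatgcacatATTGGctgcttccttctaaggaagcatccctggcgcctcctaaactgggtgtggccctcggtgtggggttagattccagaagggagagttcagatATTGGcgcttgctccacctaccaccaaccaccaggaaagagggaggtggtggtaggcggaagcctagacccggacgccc
The match in Htr2c began 80 bases before the start, and those in Htr1b began 174 and 79 bases before it. CCAAT was found in 33.8% of 32851 RefSeq promoter windows of this length. TATAAA (in 12.4% of windows), TGACGTCA (1.55%) and CACGTG (6.02%) were also searched on both strands and were found in none of the 6 members. GGGCGG (32.7%) was found in Htr1a and Htr2a. Parts of the Htr1a, Htr2a and Htr7 windows lie inside the genes as GENCODE annotates them. The Htr5a window ended at 27841946, before the annotated gene start at 27842149. The Htr7 window was 82.0% G and C with 41 CpG dinucleotides, against a median over all windows of 52.4% and 6. The Htr2c window held 55.6% and 5. These matches are letters in a window and show no binding.

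The receptor genes lie on 8 different loci (GENCODE annotation of GRCm38). Htr1a (chromosome 13, 105443639 to 105448122, plus strand) is a gene of 1 exon. Htr1b (chromosome 9, 81628291 to 81633828, minus strand) has its coding sequence in 1 exon. Htr2c (chromosome X, 146962513 to 147197277, plus strand) spans 235 kb, carries 7 annotated transcripts and is the X-linked member. Htr2a lies on chromosome 14 (74640840 to 74709494), Htr3a on chromosome 9 (48899213 to 48911099), Htr4 on chromosome 18 (62324204 to 62496577), Htr5a on chromosome 5 (27842149 to 27855088) and Htr7 on chromosome 19 (35958734 to 36057507). The deposited values are per gene, so exons and splice forms could not be told apart.

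Levels are given as log2(abundance + 1), where abundance is the deposited RSEM value, read as a measure per transcript length and per library. The table gives no read counts, so the depth of the libraries is unknown and no counting interval can be given. The tissue label was checked against marker genes. All 11 markers of hippocampal pyramidal neurons were present, with a list mean of 5.51 to 5.77 over the libraries, and of 6 markers of raphe serotonin neurons only Slc18a2 was among the genes analysed here. Ube3a ran from 3.99 to 4.34 in WT and from 3.78 to 4.31 in AS libraries, which overlap. The library labelled WT female replicate 1 stood at 0.35 for Xist, which is made from the inactive X chromosome, where the other females had 6.00 to 6.44 and males 0.17 to 0.52. Its Y-linked Eif2s3y, at 0.68, lay within the range of the females (0.30 to 1.08) and below that of the males (5.73 to 6.06). The main receptor differences and slopes that rest on this library are given with and without it. None of the 8 receptors passed in any comparison without it. The order of levels, correlations over all libraries, marker lists and other named genes are given only with it. Choroid plexus content varied widely: the mean of 25 markers ran from 1.56 to 5.07. In bulk tissue, a change in the number of cells of a type and a change in RNA per cell cannot be told apart.

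Htr2c was the most abundant of the 8 transcripts, followed by Htr1a, and Htr1b was the least abundant. The Htr2c level averaged 4.68 over the 12 libraries (SD 0.35), an abundance of 25.3, which is above the mean level of 70.0% of the 13951 genes of the table. Htr1a averaged 3.65 (SD 0.12), an abundance of 11.6, above 47.7% of genes. The others were Htr7 at 2.84, Htr3a at 2.71, Htr5a at 2.27, Htr2a at 2.24, Htr4 at 2.24 and Htr1b at 1.86, so the abundance of Htr1b was 2.65. Each of these 6 lay above the mean level of 13.9% to 31.0% of genes.

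Neighbours in this order were compared within libraries with an exact two-sided sign-flip permutation test, adjusted over the 7 pairs. Htr2c was above Htr1a in 11 of 12 libraries, by 1.03 ± 0.42 (SD of the log2 difference; adjusted p = 0.00342). The exception was WT male replicate 2, in which Htr2c was 3.77 and Htr1a 3.90. Htr1a was above Htr7 in 12 of 12 libraries, by 0.81 ± 0.22 (adjusted p = 0.00342). Htr7 and Htr3a did not differ beyond their spread (0.13 ± 0.35, higher in 8 of 12 libraries, adjusted p = 0.308). Htr3a was above Htr5a by 0.44 ± 0.40 in 11 of 12 libraries (adjusted p = 0.0103). Htr5a, Htr2a and Htr4 could not be ordered, with differences of 0.03 ± 0.25 (adjusted p = 0.809) and 0.00 ± 0.25 (adjusted p = 0.966). Htr4 was above Htr1b by 0.38 ± 0.35 in 11 of 12 libraries (adjusted p = 0.00911).

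The receptors differed in how much they varied among mice of one group. Htr3a had a within-group SD of 0.36 on the log2 scale, larger than that of 92.3% of tested genes, and Htr2c had 0.30, larger than that of 88.9%. Htr4 (0.25), Htr2a (0.22) and Htr1b (0.16) also lay above the median of all tested genes, 0.14. Htr1a (0.12), Htr5a (0.11) and Htr7 (0.09) lay below it, and the Htr7 spread was larger than that of only 18.9% of genes.

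Of the Gi/o-coupled receptors, Htr1a and Htr5a were even across groups and Htr1b was highest in WT males. The Htr1a level was 3.77, 3.67 and 3.50 in WT and 3.60, 3.66 and 3.60 in AS females, and 3.58, 3.90 and 3.75 in WT and 3.52, 3.74 and 3.51 in AS males. All 4 groups overlapped, and the highest library, WT male replicate 2, was the one lowest in Htr2c. The Htr1b level was 1.52, 1.75 and 1.94 in WT and 1.99, 1.62 and 1.68 in AS females, and 1.99, 2.23 and 2.04 in WT and 1.91, 1.76 and 1.86 in AS males. The 3 WT males all lay above the 3 AS males, and the female groups overlapped. The Htr5a level ran from 2.02 to 2.45 over all libraries, with group means of 2.32 in WT and 2.26 in AS females, and 2.31 in WT and 2.19 in AS males.

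Of the Gq-coupled receptors, Htr2c was the more abundant and Htr2a the less. The Htr2c level was 4.85, 4.98 and 4.80 in WT and 4.78, 5.17 and 4.43 in AS females, and 4.46, 3.77 and 4.64 in WT and 4.82, 4.80 and 4.67 in AS males. The 3 WT male libraries lay below all AS males, and WT male replicate 2 stood apart from the rest at 3.77. The Htr2a level was 2.25, 1.91 and 2.62 in WT and 2.20, 2.17 and 1.96 in AS females, and 2.49, 2.18 and 2.50 in WT and 2.09, 2.17 and 2.37 in AS males, and the groups overlapped.

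Among the Gs-coupled receptors, Htr7 varied least in AS females (SD 0.02) and most in WT females (SD 0.16). The Htr7 level was 2.61, 2.82 and 2.92 in WT and 2.67, 2.62 and 2.66 in AS females, and 2.86, 2.90 and 2.99 in WT and 3.04, 2.96 and 3.05 in AS males. Every male library was above 5 of the 6 female libraries, and WT female replicate 3 was the female that reached the males. The Htr4 level ran from 1.81 (WT female replicate 2) to 2.55 (WT female replicate 1), and both extremes were in 1 group.

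The channel subunit Htr3a varied most in WT males. Its level was 2.56, 2.80 and 2.75 in WT and 2.60, 2.38 and 2.89 in AS females, and 3.14, 1.90 and 2.52 in WT and 3.10, 3.09 and 2.77 in AS males. WT male replicate 1 was the highest and WT male replicate 2 the lowest of all 12 libraries. The mean of 17 interneuron markers ran from 4.99 to 5.32. Of these markers 14 were lower and 3 higher in AS over both sexes (median -0.10, against 0.01 for all genes), and none passed. An unadjusted p under 0.05 was reached by 5, all of them lower. Of all genes, 5.35% reached it in either direction and 2.77% were higher at that level. In males 11 were lower and 6 higher (median -0.04). The part of interneurons in the Htr3a values was not tested.

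**Figure D1:**
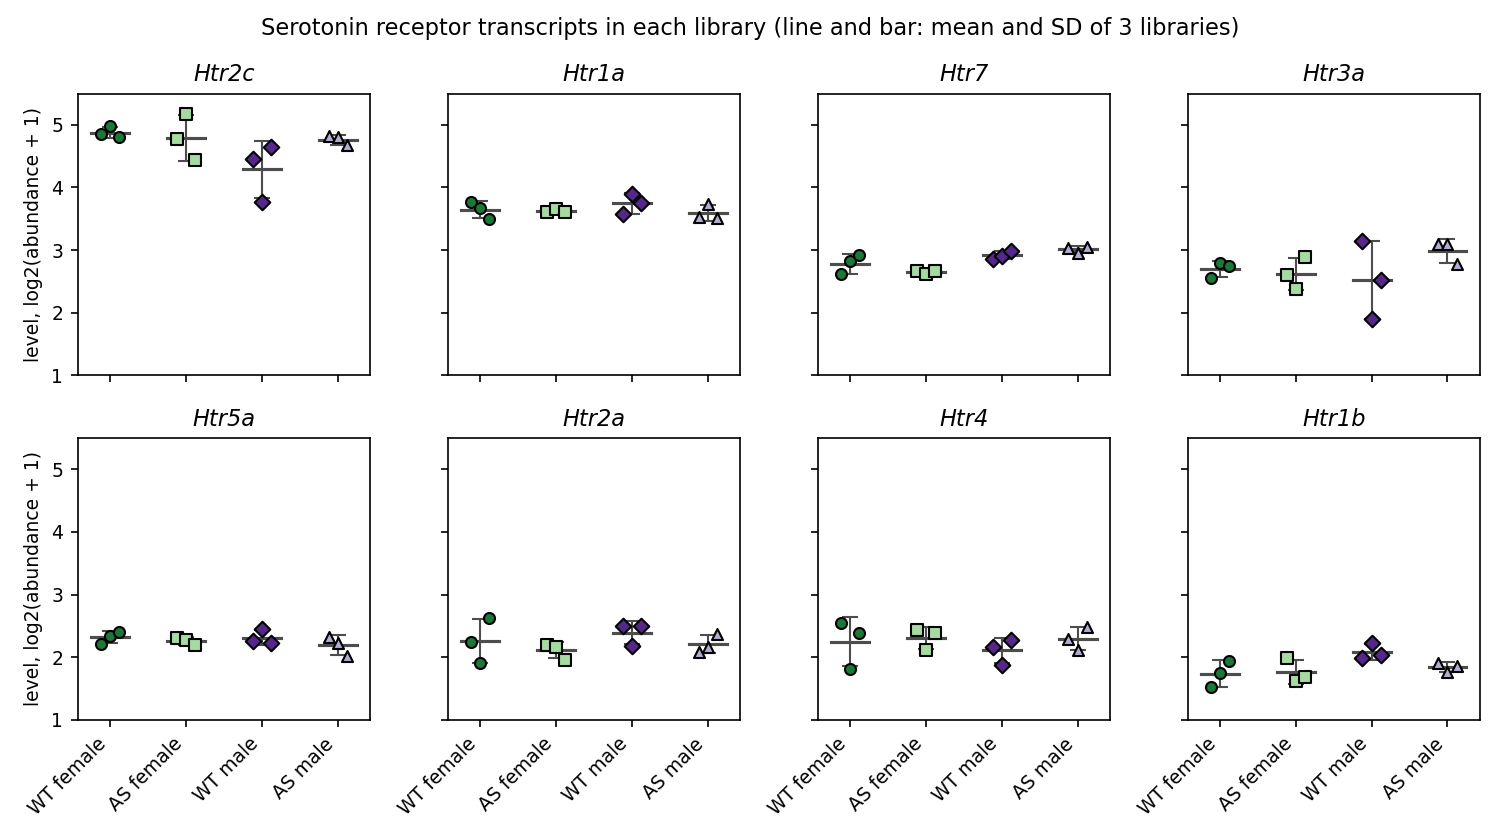
Level of each serotonin receptor transcript, log2(abundance + 1), in each of the 12 libraries by group. Points are libraries, the horizontal line is the group mean and the bar its SD (n = 3). Htr2c and Htr3a each have their lowest value, 3.77 and 1.90, in WT male replicate 2, and the Htr7 points spread most in WT females, from 2.61 to 2.92.

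The question of the design is whether transcripts differ with the Angelman genotype in females, in males or in both. No receptor passed the threshold in any of these comparisons (limma across all tested genes, Benjamini-Hochberg adjusted p under 0.05), where the share of all tested genes that passed was 0% in females, 0% in males, 0% over both sexes and 0% for the interaction of genotype and sex. In females the estimates for AS minus WT ran from -0.15 (Htr2a) to 0.06 (Htr4), and each adjusted p was 1. None of the 8 had an unadjusted p under 0.05, against 3.16% of all genes, and none separated the female groups without overlap, against 9.01%. Without WT female replicate 1 the adjusted p of every receptor was again 1 in limma. The smallest unadjusted p was then that of Htr7 (-0.22 ± 0.089, limma unadjusted p = 0.0324). The 95% intervals bound the difference in females to between 0.842 and 1.14 times for Htr1a, between 0.687 and 1.30 times for Htr2c and between 0.645 and 1.38 times for Htr3a.

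In males, Htr2c was higher in AS than in WT by 0.47 ± 0.21 (SE, limma; unadjusted p = 0.0461, adjusted p = 0.763), with an interval of 1.01 to 1.90 times. It was the only receptor under an unadjusted p of 0.05, a level that 6.42% of all genes reached. The groups did not overlap for Htr2c (AS higher) or Htr1b (AS lower, -0.24 ± 0.15, adjusted p = 0.809), 2 of the 8 receptors, where 11.2% of all tested genes did not overlap. The Htr2c value rested on WT male replicate 2: without it the difference was 0.21 ± 0.17 (adjusted p = 0.999), and without WT male replicate 3 it was 0.65 ± 0.21 (adjusted p = 0.706). Htr3a differed by 0.47 ± 0.25 (adjusted p = 0.785), by 0.15 ± 0.20 without WT male replicate 2 and by 0.78 ± 0.20 without WT male replicate 1 (adjusted p = 0.623). The other receptors differed by -0.18 (Htr2a) to 0.19 (Htr4).

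In the same comparison of males, 24 of 25 choroid plexus markers (median 0.42) and 5 of 6 ependyma markers (median 0.22) were higher in AS, none with an unadjusted p under 0.05. The mean of the choroid plexus markers was 1.56, 3.06 and 1.56 in AS and 1.80, 1.63 and 1.57 in WT males. Only AS male replicate 2 stood above the WT males. The ependyma mean was 2.00, 2.67 and 1.77 in AS and 2.21, 1.45 and 2.17 in WT males. With Ttr as a covariate the Htr2c difference in males was 0.46 ± 0.21 (adjusted p = 0.705). WT male replicate 2 also stood apart in genes of other cells. The mean of 6 ependyma markers (Foxj1, Tmem212, Ccdc153, Rarres2, Dynlrb2 and Pifo) was 1.45 in this library and 1.77 to 2.72 in the others. The mean of 5 thalamus markers was 2.49 there and 1.88 to 2.14 elsewhere. The part of ependymal and thalamic cells in the Htr2c and Htr3a differences was not tested.

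Over both sexes the differences ran from -0.17 ± 0.12 (Htr2a) to 0.19 ± 0.15 (Htr2c), with adjusted p between 0.94 and 0.989, and 0 of 8 had an unadjusted p under 0.05, against 5.35% of all genes. No receptor separated the 6 AS from the 6 WT libraries, and 0.361% of genes did. Without WT male replicate 2 the Htr2c difference was 0.06 ± 0.11. The median of the 8 receptors was -0.05, against 0.01 for all tested genes, with 3 receptors higher and 5 lower in AS. The difference between the sexes in the AS effect was 0.55 ± 0.30 for Htr2c (adjusted p = 0.987), 0.55 ± 0.36 for Htr3a (adjusted p = 0.987) and 0.24 ± 0.13 for Htr7 (adjusted p = 0.987). For the interaction, 3.77% of all genes and none of the 8 receptors had an unadjusted p under 0.05 with all 12 libraries and no covariate. With Ttr as a covariate the Htr7 interaction was 0.28 ± 0.12 (limma unadjusted p = 0.0441, adjusted p = 0.999). Without WT male replicate 2, and with no covariate, the interaction was 0.29 ± 0.23 for Htr2c, 0.23 ± 0.27 for Htr3a and 0.23 ± 0.14 for Htr7. With each library left out in turn, these values were lowest without WT male replicate 2 for Htr2c and Htr3a. For Htr7 the lowest was 0.17, without WT female replicate 3. The highest for Htr2c was 0.74 ± 0.28, without AS female replicate 2 (limma unadjusted p = 0.0231, adjusted p = 0.871). For Htr3a it was 0.86 ± 0.27, without WT male replicate 1 (limma unadjusted p = 0.00949, adjusted p = 0.975). For Htr7 it was 0.32 ± 0.12, without WT female replicate 1 (limma unadjusted p = 0.0213, adjusted p = 0.997). Without WT female replicate 1 the interaction was 0.57 ± 0.33 for Htr2c and 0.62 ± 0.39 for Htr3a, and over both sexes the adjusted p of the 8 receptors lay between 0.94 and 0.97. The genotype effect was therefore not shown to differ between the sexes for any receptor.

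Between the sexes, with both genotypes averaged, Htr7 showed the clearest difference of the 8, with males above females by 0.25 ± 0.064 (SE, limma; 1.08 to 1.31 times; unadjusted p = 0.00237). It ranked 50 of 13858 genes by p and did not pass (adjusted p = 0.647). None of the 8 receptors passed, and 0.0361% of all tested genes did. An unadjusted p under 0.05 was reached by 1 of the 8 and by 6.91% of all genes, and the 6 males and 6 females separated without overlap for 0 of the 8 and for 0.296% of all genes. Without WT female replicate 1, the female library low in Xist, the Htr7 difference was 0.21 ± 0.060 (unadjusted p = 0.00563, adjusted p = 0.834). With Ttr as a covariate it was 0.19 ± 0.073 (adjusted p = 0.845). Htr2c, on the X chromosome, was lower in males by -0.31 ± 0.15 (adjusted p = 0.731), by -0.18 ± 0.11 without WT male replicate 2, by -0.32 ± 0.17 without WT female replicate 1 and by -0.21 ± 0.18 with Ttr as a covariate. In the same comparison 25 of 25 choroid plexus markers were lower in males (median -1.42), 13 of them with an unadjusted p under 0.05. Of the ependyma markers 6 of 6 were lower in males (median -0.39), 3 of them under that level. The mean of the choroid plexus markers was 4.19, 5.07 and 1.98 in WT females and 1.63, 4.89 and 1.83 in AS females. Among males it was 1.56 to 1.80, except in AS male replicate 2 (3.06). Htr1b was higher in males by 0.21 ± 0.10 (adjusted p = 0.735), and by 0.16 ± 0.10 without WT female replicate 1.

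**Figure D2:**
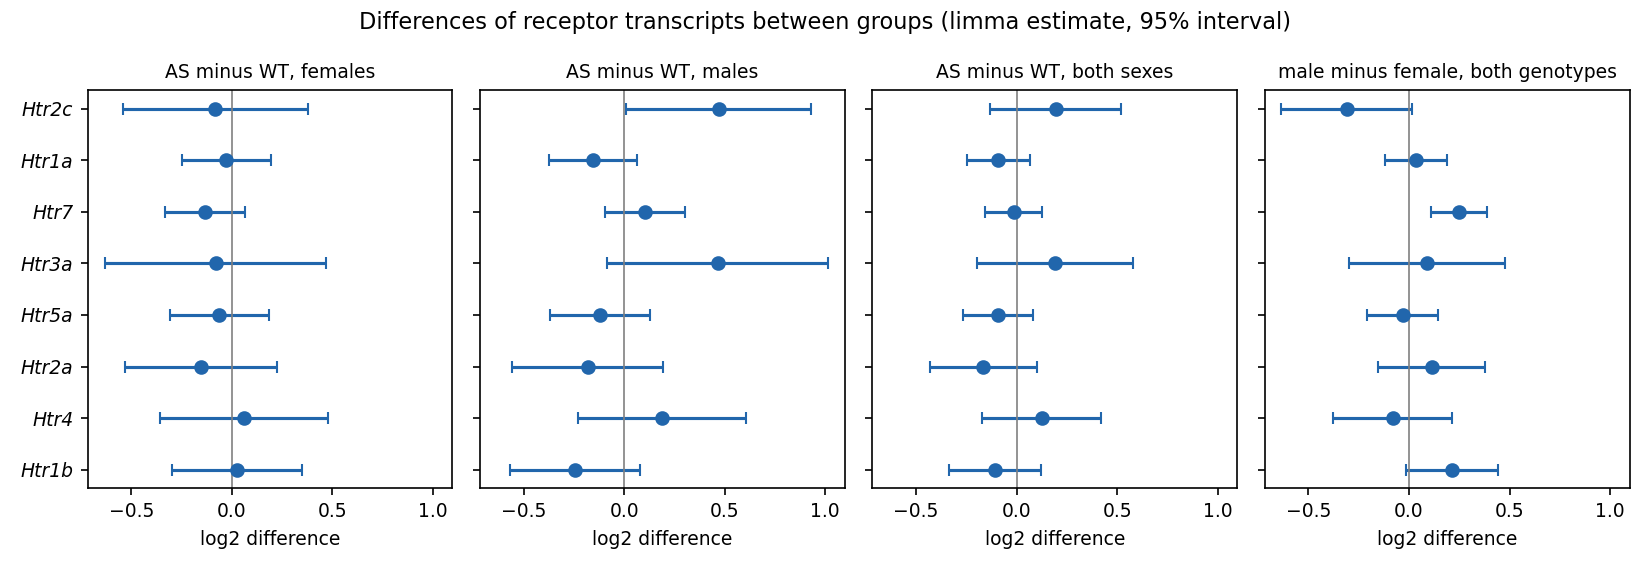
Differences of the 8 receptors between groups on the log2 scale, with points for the limma estimate and bars for its 95% interval; the panels are AS minus WT in females, in males and over both sexes, and male minus female. Htr7 has an interval above 0 between the sexes, as does Htr2c for AS minus WT in males (0.01 to 0.93), and neither passed after adjustment over all genes.

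Ttr itself ran from 2.33 to 11.71, an 832-fold range in abundance with the deposited values read at base e. Split at the largest gap in Ttr, 2.76, the libraries fell into 8 with Ttr between 2.33 and 6.49 and 4 between 9.25 and 11.71. The next largest gap was 1.69. The 4 high libraries were WT female replicates 1 and 2, AS female replicate 2 and AS male replicate 2, and no WT male was among them. Htr2c was 4.85, 4.98, 5.17 and 4.80 in these 4. In the 8 low libraries it ran from 3.77 to 4.82 with a median of 4.66, so the ranges met at 4.80 to 4.82. Such a near-separation was not particular to Htr2c. Htr1b ran the other way, from 1.52 to 1.76 in the 4 high libraries and from 1.68 to 2.23 in the 8 low ones (median 1.96). The highest Htr2c level of all, 5.17, was in AS female replicate 2, where Ttr was 11.66. The library lowest in Ttr, AS male replicate 3 (2.33), had Htr2c at 4.67.

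The split was made at the largest gap in Ttr, and whether the values form separate clusters was not tested. Because of this split, no correlation over all 12 libraries is given. The r within the 8 low libraries leaves out the 4 with high Ttr, so it cannot say how Htr2c relates to Ttr across the gap. Within the 8 low libraries, Htr2c and Ttr had Pearson's r of -0.35 (exact permutation p = 0.432, adjusted over the 8 receptors 0.938) and Spearman's rho of -0.24 (exact permutation p = 0.582, adjusted p = 1). Without the 2 libraries farthest from the median Ttr, r was -0.33. With the mean of the other choroid plexus markers in place of Ttr, the direction turned and r was 0.24 (exact permutation p = 0.557). The other receptors gave r from -0.53 (Htr7) to 0.60 (Htr5a) in the same libraries, with adjusted exact permutation p of 0.749 or more. For Htr5a r was 0.00 without the 2 libraries farthest from the median.

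**Figure D3:**
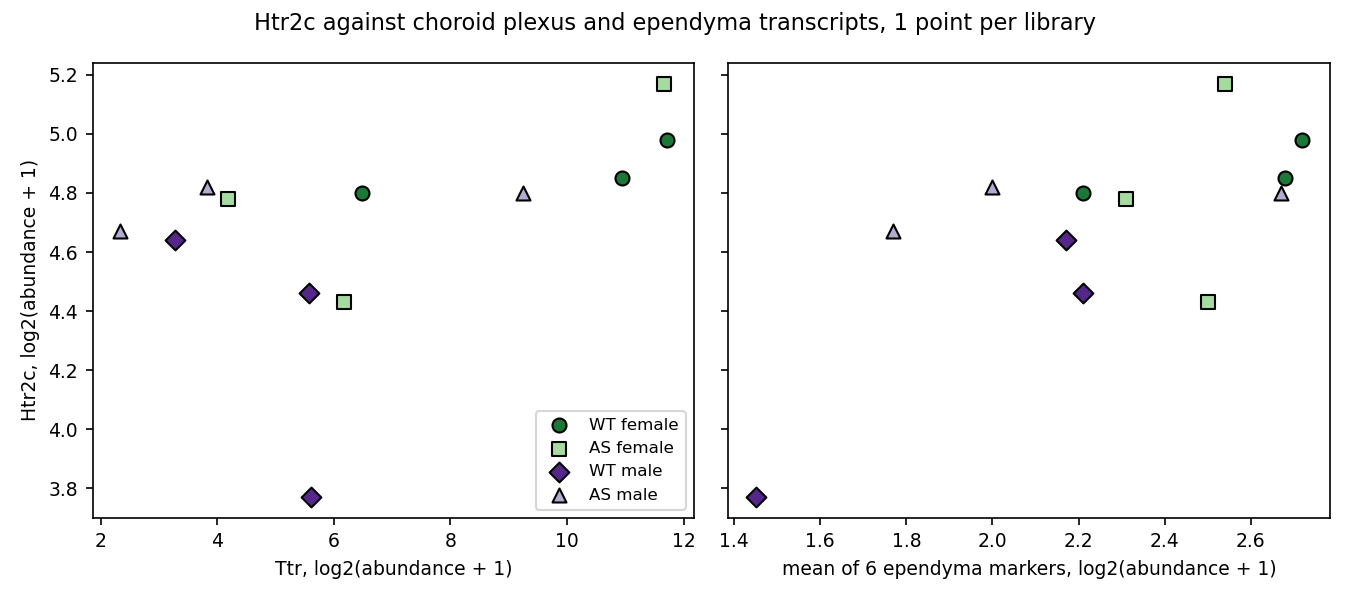
Htr2c level against the level of Ttr (left) and against the mean of 6 ependyma markers (right), both log2(abundance + 1), with 1 point per library and a symbol per group. The 4 libraries with Ttr above 9 have Htr2c from 4.80 to 5.17, and WT male replicate 2, with Htr2c at 3.77, has a Ttr of 5.61 and the lowest ependyma mean, 1.45.

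A slope on Ttr within groups was fitted to every tested gene, giving the log2 change of a transcript per log2 unit of Ttr. The Htr2c slope was 0.027 ± 0.030 (SE, limma; 95% interval -0.039 to 0.092; adjusted p = 0.752). None of the 8 receptors passed, and 0.115% of all tested genes did. Without AS female replicate 2, the library highest in Htr2c, the slope was -0.009 ± 0.034, and without WT male replicate 2 it was 0.035 ± 0.019 (adjusted p = 0.48). With the mean of the other choroid plexus markers in place of Ttr, the Htr2c slope was 0.121 ± 0.068 (adjusted p = 0.658). Without group means in the model it was 0.048 ± 0.026 (adjusted p = 0.424). In that model 2 receptors had lower adjusted p than Htr2c, both with negative slopes. They were Htr1b (-0.040 ± 0.015, adjusted p = 0.263) and Htr7 (-0.028 ± 0.013, adjusted p = 0.343).

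The choroid plexus markers had positive slopes on Ttr. All 24 that could be tested had a positive slope, 11 passed, and their slopes ran from 0.135 to 0.58 with a median of 0.358, against a median of -0.004 over all genes. The 5 genes with the smallest p in the positive direction were Clic6, an intracellular chloride channel protein (0.504 ± 0.056), Srp54c (0.099 ± 0.011), the potassium channel Kcnj13 (0.558 ± 0.065), the lysophospholipase Enpp2 (0.476 ± 0.056) and the potassium channel subunit Kcne2 (0.513 ± 0.067). Each had an adjusted p of 0.0171 to 0.0234 (limma). The upper bound of the Htr2c interval, 0.092, overlapped the intervals of the markers Car12 (0.058 to 0.214) and Slc31a1 (0.085 to 0.186). The difference between the Htr2c slope and those of the markers was not tested. A log2 slope also depends on the level already present where Ttr is low, which was 3.77 to 4.82 for Htr2c. The slopes therefore do not measure how much RNA choroid plexus adds to Htr2c or to the markers. These markers were chosen with Ttr-related patterns in these libraries already known, so their slopes are a description of the choroid plexus signal beside Htr2c and no independent evidence.

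The remaining receptors had slopes from -0.052 to 0.024. Htr4 had the lowest, -0.052 ± 0.023 (unadjusted p = 0.0446, adjusted p = 0.413), and it was the 1 receptor of 8 under an unadjusted p of 0.05, a level that 11.8% of all genes reached. Without WT female replicate 1 it was -0.061 ± 0.018 (unadjusted p = 0.0062, adjusted p = 0.296), and the Htr2c slope was 0.028 ± 0.032. Htr1b had -0.032 ± 0.019 and Htr1a 0.024 ± 0.013.

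**Figure D4:**
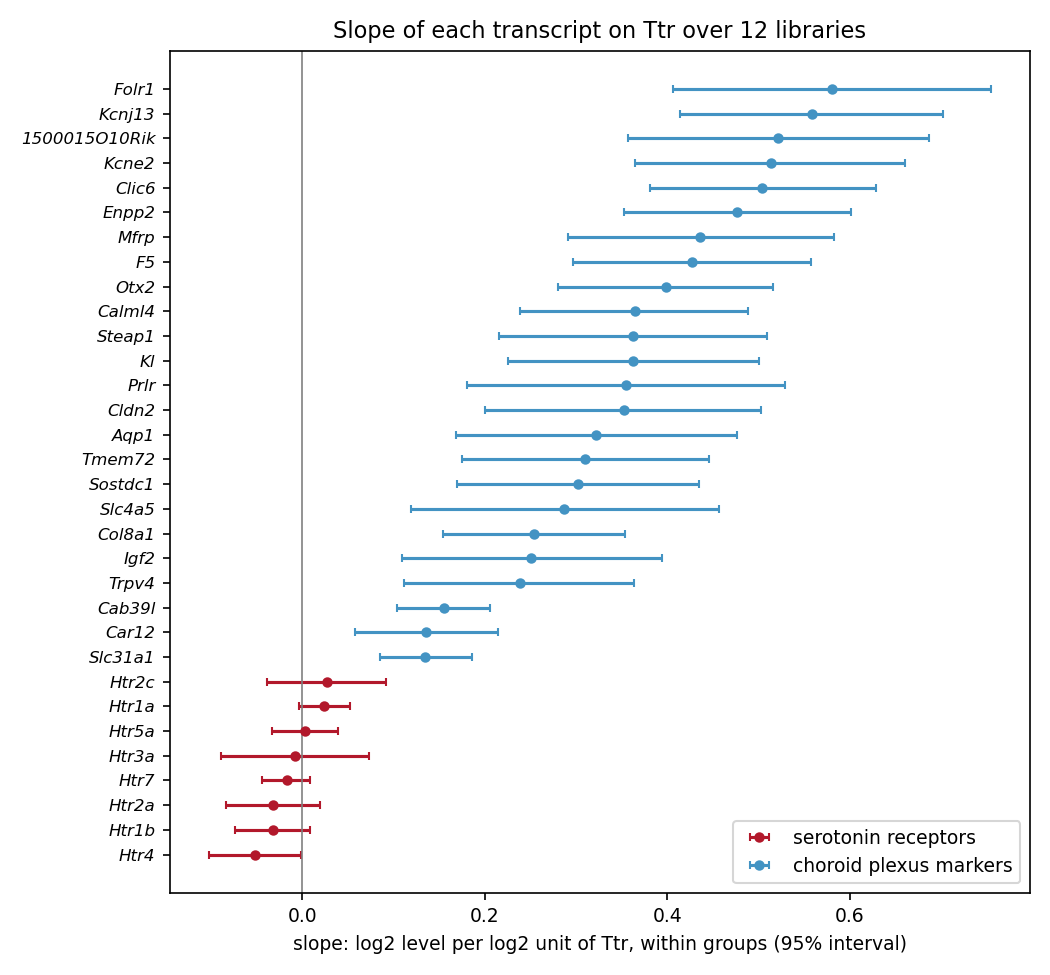
Slope of each transcript on Ttr within groups, in log2 units per log2 unit of Ttr, with 95% intervals, for the 8 receptors and 24 choroid plexus markers. The marker slopes run from 0.135 to 0.58, and the receptor slopes from -0.052 (Htr4) to 0.027 (Htr2c).

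The 3 genes whose pattern over the 12 libraries was most like that of Htr2c were Rsph9, Btf3l4 and Rsph4a, each with Pearson's r of 0.90. Rsph9 and Rsph4a encode proteins of the radial spoke of motile cilia, which ependymal cells carry. Like Htr2c, both were lowest in WT male replicate 2, where Rsph9 was 3.58 against 4.25 to 4.67 in the other libraries and Rsph4a was 1.18 against 1.66 to 2.49. An Htr2c slope on the ependyma mean, an alternative added after the data were seen, was 0.484 ± 0.225 per log2 unit (unadjusted p = 0.0553, adjusted p = 0.45). The same slope for Htr3a was 0.568 ± 0.271 (adjusted p = 0.462). WT male replicate 2, the library lowest in Htr2c, in Htr3a and in the ependyma mean, is part of these slopes and of the correlations above. They were not computed without it, so how far they rest on this library is not known.

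For the other receptors the most alike genes were Ero1lb, Sema3c and Fat3 for Htr1a (r of 0.90 to 0.92), Pamr1, Chkb and Ngef for Htr1b (0.90 each), Vta1, Gm26804 and Gstt1 for Htr2a (0.82 to 0.86), and Mad2l2, Fip1l1 and Kdelc2 for Htr3a (0.85 to 0.94). They were Zfp592, Soga1 and Nsf for Htr4 (0.91 to 0.95), Nkiras1, Mark1 and Gm27003 for Htr5a (0.87 each) and Mettl25, Tle4 and Celf4 for Htr7 (0.90 to 0.94). These are the highest values among all tested genes over 12 libraries that share one normalization, and are given as a description. No receptor appeared among the most alike genes of another. Between receptors, r ran from -0.67 (Htr2c with Htr1b) to 0.55 (Htr7 with Htr1b), and that of the 2 Gq-coupled receptors, Htr2a and Htr2c, was -0.08.

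Of the 6 other serotonin receptors listed, Htr5b and Htr6 were analysed. Htr5b averaged 1.83 and differed between AS and WT by 0.10 ± 0.15 over both sexes (adjusted p = 0.976). Htr6, which encodes a Gs-coupled receptor, averaged 1.51 and differed by 0.02 ± 0.13 (adjusted p = 0.992). Both lay below the least abundant of the 8, Htr1b.

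Genes that make, carry and break down serotonin were represented by 8 of 14 listed, and none passed in AS minus WT over both sexes; 2 of 8 were higher with an unadjusted p under 0.05, against 2.77% of all genes higher at that level. Ddc, which encodes the decarboxylase that forms serotonin and dopamine, had the largest difference. Its level was 2.14, 2.00 and 2.11 in WT and 2.47, 2.47 and 2.50 in AS females, and 2.03, 2.00 and 2.40 in WT and 2.26, 2.54 and 2.39 in AS males. All 3 AS females were above all WT females, where 9.01% of all tested genes separated the female groups in either direction. The male groups overlapped. The difference was 0.32 ± 0.088 over both sexes (limma unadjusted p = 0.00328, adjusted p = 0.661). Pts, an enzyme of the synthesis of the cofactor tetrahydrobiopterin, differed by 0.16 ± 0.056 (adjusted p = 0.893). The median of the 8 was 0.13, against 0.01 for all genes.

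None of the genes that couple these receptors to their signals passed between AS and WT over both sexes. Of 12 genes of Gi/o proteins, their regulators and GIRK channels, 8 were higher and 4 lower in AS (median 0.03), and Rgs19, which speeds the shut-off of Gi/o signals, had 0.19 ± 0.081 (adjusted p = 0.905). Of 12 genes of Gq and phospholipase C, 6 were higher and 6 lower (median 0.00), and the most abundant was the protein kinase C gene Prkcb (level 7.20, difference -0.03 ± 0.073, adjusted p = 0.983). Of 14 genes of Gs and adenylyl cyclase, 6 were higher and 8 lower (median -0.01), and the adenylyl cyclase Adcy2 had 0.13 ± 0.048 (adjusted p = 0.893).

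Of 15 genes for receptor partners and trafficking, 12 were higher and 3 lower (median 0.02), none passed, and Deaf1, a transcription factor that acts on the Htr1a promoter, had 0.19 ± 0.086 (adjusted p = 0.914). Of 5 genes for RNA editing and Htr2c processing, 2 were higher and 3 lower (median -0.02) and none passed. Adarb1 encodes an adenosine deaminase that edits Htr2c mRNA. Its level in males was 5.23, 5.40 and 5.30 in WT and 5.11, 5.12 and 5.09 in AS. These did not overlap, as was the case for 11.2% of all tested genes in males. In females the level was 5.17, 5.24 and 5.16 in WT and 5.16, 5.23 and 5.14 in AS. The difference was -0.20 ± 0.059 in males (adjusted p = 0.748), -0.02 ± 0.059 in females and -0.11 ± 0.042 over both (adjusted p = 0.893). Rbfox2, a splicing factor, had -0.08 ± 0.038 over both sexes (adjusted p = 0.914).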

How the data were processed

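RNA from 12 mice was sequenced, 1 library per mouse and 3 libraries per group. Per the submitters' processing notes, Trimmomatic, Bowtie2 and RSEM were used with the GRCm38 (mm10) genome, and no versions are given. The deposited values were read as ln(abundance + 1), a natural log of RSEM output. This reading comes from the values: with base e a library adds up to 547558 to 587587, with base 2 to 121858 to 124206. At base 2 every log2 difference would be 0.693 times as large, and the abundances and the fold range of Ttr would be smaller. The sources used here do not say whether this is TPM or FPKM. All values between 2 and 5 recur in all 12 columns, so the table was read as quantile-normalized in that range. The deposited values hold no counts.

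Values were converted to log2(abundance + 1). The 93 genes averaging an abundance under 1 were left out. One limma 3.58.1 model (R 4.3.3, variance trend, 4 group means, 8 residual degrees of freedom) gave 5 contrasts, and a second gave the slope on Ttr (7 degrees of freedom). Calls were made where the p, adjusted by Benjamini-Hochberg across every tested gene, was under 0.05. Errors are standard errors of the model unless marked SD, and intervals are at 95%. The fits were tested on simulated data. Levels and correlations were compared with exact permutation tests (Python 3.11.15, scipy 1.17.1). p-values measure the spread between these mice.

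Symbols and coordinates came from GENCODE on GRCm38, which named 13735 of the identifiers and left 216 without a symbol. Ecrg4 was matched under its older name, 1500015O10Rik. The 8 members, the gene lists and the tests were chosen with earlier results of these data known. Named genes are all members, up to 4 genes per list with the smallest unadjusted p under 0.05 over both sexes (otherwise the 2 with the highest level), the 3 genes most correlated with each member and the 5 most positive genes of the slope by p. One gene that this rule names is not reported here. Ube3a, Xist and Eif2s3y are given as checks of the labels, and the levels of Rsph9 and Rsph4a were looked at after their correlations were seen. Of the marker lists, those of dentate granule cells ranged over libraries from 2.90 to 3.58, medial habenula 3.01 to 3.52 (2 of 5 analysed), astrocytes 6.05 to 6.20, oligodendrocytes 6.29 to 7.16, microglia 4.04 to 4.32, endothelium 3.52 to 4.17 and meningeal fibroblasts 1.92 to 3.21. The alternatives were an added constant of 0.1, a fit with no filter, a filter at an abundance of 5, base 2, only the groups compared, each library left out, library quality weights, a robust variance prior, choroid plexus covariates, and a fit leaving out the 4 libraries with the most choroid plexus signal.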

Additional observations from a re-analysis of the deposited data

How the results depend on the processing

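Of 1000 member values recomputed under the alternatives, 951 kept their direction and 49 changed sign, and none passed the threshold under any. The smallest adjusted p of a member was 0.254 (Htr7, male minus female, library quality weights). Part of the 951 could not have changed sign. Leaving out a male library left the AS minus WT estimates in females as they were, and the reverse held for males. A changed filter or a robust variance prior leaves the estimates unchanged, and another log base only rescales them. The 951 therefore do not measure how stable the directions are. Htr1b, Htr2a, Htr4 and Htr5a are below the abundance filter of 5 and have no value there. Depth is unknown and limits what can be said of low transcripts.

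With library quality weights, Htr7 over both sexes was 0.007, Htr1a between the sexes -0.008 and the Htr5a slope -0.001. With Ttr as a covariate, AS minus WT in females was 0.031 for Htr1a, -0.051 for Htr1b and -0.061 for Htr4, the Htr2a interaction was 0.057 and the Htr2a sex difference -0.002. With the mean of choroid plexus markers as a covariate, females gave 0.020 for Htr1a, -0.048 for Htr1b, 0.027 for Htr2c and -0.052 for Htr4, and the Htr2a interaction was 0.072. Leaving out the 4 libraries of highest choroid plexus signal left 1 WT female, 2 AS females, 3 WT males and 2 AS males, so the female, pooled, interaction and sex values of that fit assume that the lone WT female varies like the other groups. In it, females gave 0.102 for Htr1a and -0.107 for Htr1b, the interaction 0.379 for Htr2a and 0.015 for Htr5a, and the sex difference -0.045 for Htr2a and -0.022 for Htr3a. With the choroid plexus mean in place of Ttr, the Htr5a slope was -0.009 and the r of Htr2c within the 8 low libraries 0.24. With the ependyma mean in place of Ttr, the slopes were 0.568 for Htr3a and -0.086 for Htr5a. The cause of these changes was not tested.

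When each library was left out in turn, AS minus WT in females ran from -0.101 to 0.035 for Htr1a, -0.086 to 0.127 for Htr1b, -0.327 to 0.030 for Htr2a, -0.271 to 0.098 for Htr2c, -0.214 to 0.041 for Htr3a and -0.156 to 0.213 for Htr4. Htr7 over both sexes ran from -0.058 to 0.020. The interaction ran from -0.211 to 0.145 for Htr2a, -0.026 to 0.343 for Htr4 and -0.129 to 0.028 for Htr5a. The sex difference ran from -0.004 to 0.075 for Htr1a, -0.065 to 0.246 for Htr3a and -0.067 to 0.012 for Htr5a. The slope on Ttr ran from -0.009 to 0.039 for Htr2c, -0.024 to 0.020 for Htr3a and -0.008 to 0.011 for Htr5a, and the r of Htr2c with Ttr from -0.60 to -0.30.

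Over all genes, the number called was 0 for AS minus WT in females, males, both sexes and the interaction, 5 between the sexes and 16 for the slope. Without the 4 libraries of highest choroid plexus signal, with 1 WT female left, these were 5, 1, 2 and 2, and 12 between the sexes. The filter at an abundance of 5 gave 3 between the sexes. The slope gave 75 with library quality weights, 100 with the choroid plexus mean, 185 without group means and 0 with the ependyma mean. Leaving out each library gave 0 to 1 in females, 0 to 1 in males, 0 to 2 over both sexes, 0 to 1 for the interaction, 4 to 8 between the sexes and 0 to 31 for the slope. No paired analysis was possible because the replicate numbers follow the order of accession and pair no libraries.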
